A study of Homo sapiens with 12 samples.

Results

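The genes described are the 4 pyruvate dehydrogenase kinases (PDK1, PDK2, PDK3 and PDK4), the catalytic subunits of the 2 pyruvate dehydrogenase phosphatases (PDP1 and PDP2) and the 2 subunits of the E1 component of the pyruvate dehydrogenase complex (PDHA1 and PDHB). They were taken as a list by name, through the symbols of the gene IDs in the count files, and are 8 of 57820 gene IDs. The 6 splicing events of PDK1 were taken with them, out of 56092 deposited events. All 8 genes passed the filter on low counts and were tested among 16999 genes, and all 6 events were tested among 45856.

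RNA came from AsPC-1, an established human pancreatic cancer line, in 4 groups of 3 libraries, replicates A, B and C. Every well had received an siRNA by lipid transfection, either a scramble (siControl) or one against ARNT (siARNT). Cells were then kept at 21% O2 (normoxia) or moved to 1% O2 for 24 h (hypoxia), and RNA was taken 48 h after transfection. The replicates are wells of 1 cell line, so p-values measure the spread between these wells only, and siARNT lowers ARNT rather than removing it. ARNT is the shared partner of the HIF alpha subunits and of the aryl hydrocarbon receptor. The design thus compares the response to low oxygen with and without most of the ARNT RNA.

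The pyruvate dehydrogenase complex turns pyruvate into acetyl-CoA in mitochondria and so commits glucose carbon to the citric acid cycle. The kinases phosphorylate serines of PDHA1 and switch the complex off, and the phosphatases remove those phosphates and switch it on. PDK1 is a textbook target of HIF-1, and PDK4 is known from fasting, where PPAR and FOXO factors raise it. PDK1 here is pyruvate dehydrogenase kinase 1, not the signalling kinase PDPK1 that shares the name. Transcript levels do not report phosphorylation or enzyme activity, which were not measured here.

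In GRCh38, with GENCODE 29 gene models, PDK1 (ENSG00000152256.9) lies at chr2:172555373-172608669 on the plus strand and PDK4 (ENSG00000004799.7) at chr7:95583499-95596491 on the minus strand. PDK2 (ENSG00000005882.7) lies at chr17:50094737-50112152 and PDK3 (ENSG00000067992.8) at chrX:24465221-24541862, both on the plus strand. PDP2 (ENSG00000172840.2) lies at chr16:66878589-66895754 on the plus strand. PDP1 (ENSG00000164951.11) is placed with its values below. PDHA1 (ENSG00000131828.9) lies at chrX:19343893-19361705 on the plus strand and PDHB (ENSG00000168291.8) at chr3:58427630-58433857 on the minus strand.

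HIF binds DNA together with ARNT at sites built on the core ACGTG or GCGTG, and the aryl hydrocarbon receptor with ARNT at sites built on GCGTG. Both cores were searched on both strands in the 250 bases before each RefSeq start site (GRCh38.p14), which were at hand for 7 of the 8 genes in 10 windows. Of 35116 windows in that table, 18.5% held ACGTG, 32.2% held GCGTG and 43.2% held either. The start of PDK1 held 2 ACGTG matches, both read from the minus strand and so written CACGT, beginning 17 and 8 bases before the start site, and 16.5% of all windows held either core at 2 or more places. Here a CACGTG, which reads as ACGTG on both strands, counts as 1 place. The 30 bases that end at this start site, at chr2:172556060-172556089 on the plus strand, are shown because they carry both matches, in capitals. The GENCODE 29 coding transcripts PDK1-201, PDK1-202 and PDK1-203 start before these bases, at 172555969, 172556007 and 172556051, so the bases lie in their first exon. A second PDK1 start site, at 172555373, held neither core. PDK4, whose level also fell with siARNT as given below, held neither core in its 250 bases, at chr7:95596517-95596766 on the minus strand, shown whole for comparison. Both sequences are given in full and read 5′ to 3′ along the gene.
PDK1: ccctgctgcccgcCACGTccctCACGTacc
PDK4: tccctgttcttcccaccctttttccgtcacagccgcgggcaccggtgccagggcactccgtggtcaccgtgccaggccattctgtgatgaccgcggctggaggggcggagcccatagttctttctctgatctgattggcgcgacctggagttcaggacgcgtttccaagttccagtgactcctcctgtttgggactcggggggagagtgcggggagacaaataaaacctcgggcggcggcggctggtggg

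PDK2 held matches at 2 places before 1 of its 3 start sites and at none before the others. PDK3 held 2 such places, PDP2 held 2, PDHA1 held 3 and PDHB held 5. A match is a string of letters and not a measured binding site. No binding was measured in these samples.

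Gene counts per library totalled 38.53 to 84.34 M. ARNT itself averaged 62.4 ± 1.53 CPM (TMM-scaled counts per M) in normoxia siControl and 13.4 ± 0.56 in normoxia siARNT, and 69.1 ± 3.81 and 15.3 ± 1.04 in hypoxia (SD, n = 3). The 10 epithelial and ductal carcinoma markers summed to 5940 to 10000 CPM, with 1 of them under 1 CPM in every library. The 15 markers of fibroblasts, immune, endothelial, acinar and islet cells found in the files summed to between 2.43 and 3.58 CPM, with 14 of them under 1 CPM in every library. Libraries differed in how counts related to the GC content of genes. The slope was steepest in normoxia siARNT replicate B (0.436 log2 units per 10 points of GC) and next in hypoxia siARNT replicate C (0.246), against -0.216 in normoxia siControl replicate A. Results that a correction for this slope changes are given with and without it. With it, more of all genes passed: 43.9% against 25.3% for hypoxia in siControl, 22.9% against 4.09% for hypoxia in siARNT, 33.5% against 20.2% for siARNT in normoxia, 47.4% against 29.1% for siARNT in hypoxia and 19.7% against 4.69% for the interaction.

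Set per length (TPM, with the median length of coding transcripts), PDK4 was the most abundant of the 8 genes in normoxia siControl, at 97.7 ± 4.42 TPM (SD, n = 3). PDHB followed at 61.4 ± 3.32, PDHA1 at 44.4 ± 0.788, PDK1 at 23.2 ± 1.41 and PDP1 at 21.9 ± 0.394. PDK2 stood at 4.77 ± 0.756, PDK3 at 4.00 ± 0.0852 and PDP2 at 2.50 ± 0.0641 TPM. PDK1 and PDP1 overlapped between libraries, and each of the other neighbours in this order was separate in all 3 libraries. The place of PDK1 depends on its length, since its GENCODE transcripts run from 1515 to 14193 nt. The order of PDHB and PDHA1 also depends on length, as PDHB had 50.8 CPM against 81.2 for PDHA1. Their median lengths were 1490.5 and 3293.5 nt, and their full exon lengths 4717 and 4493 nt. The deposited read coverage of single exons needs no gene length. Exon 2 of PDK4 (142 nt) had a mean coverage of 7.19 ± 0.583 per M gene counts, against 1.86 ± 0.0409 for exon 7 of PDK1 (77 nt; SD, n = 3).

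PDK1 followed a pattern in which 1 group of the 4 stood apart. Its 3 libraries held 40.0, 35.6 and 40.1 CPM in normoxia siControl and 39.2, 36.2 and 40.2 in normoxia siARNT. They held 102, 94.1 and 104 CPM in hypoxia siControl and 40.9, 39.4 and 38.0 in hypoxia siARNT. All 3 hypoxia siControl libraries were more than double any other library, and the other 9 libraries overlapped. With siControl the log2 fold change of hypoxia was 1.38 (2.60-fold, SE 0.07, adjusted p 2.76e-07). With siARNT it was 0.03 (SE 0.07, adjusted p 0.802). The effect of siARNT was 0.00 at 21% O2 (SE 0.069, adjusted p 0.986) and -1.35 at 1% O2 (SE 0.07, adjusted p 1.36e-07). The interaction, the oxygen response with siARNT less the one with siControl, was -1.34 (SE 0.098, adjusted p 2.44e-05). PDK1 kept these calls under each alternative run, with 1 exception. A correction for GC content turned the siARNT value in normoxia into a small rise of 0.15 (adjusted p 0.0127). The coverage of exon 7 of PDK1 went the same way, with 1.86 ± 0.0409, 1.8 ± 0.112, 4.22 ± 0.516 and 1.93 ± 0.192 per M in the order above (SD, n = 3).

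**Figure D1:**
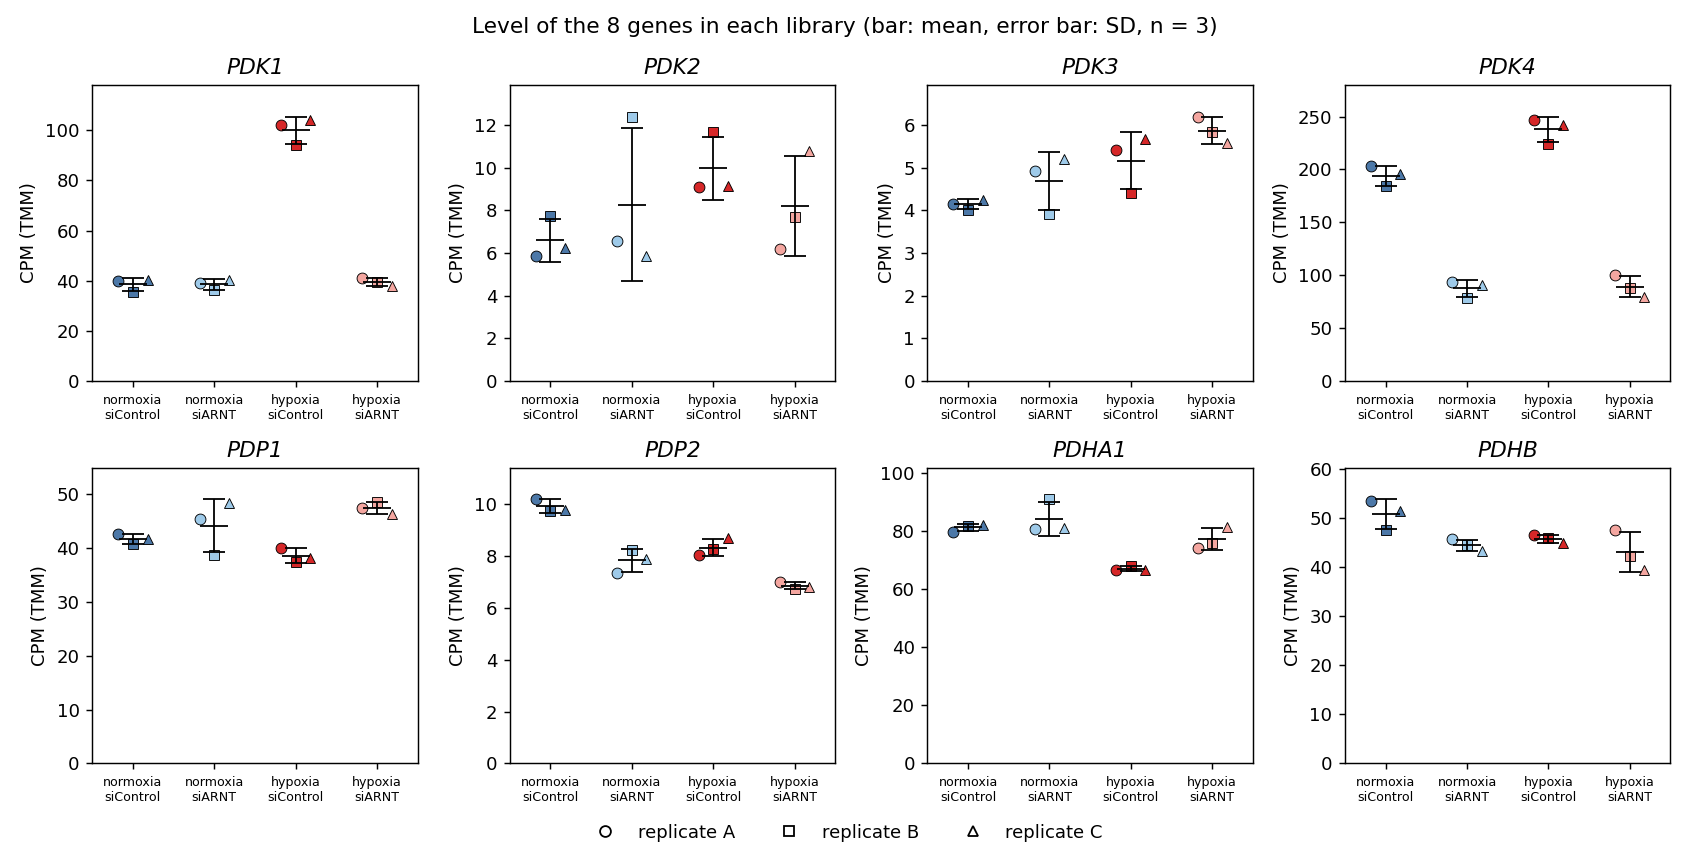
CPM of each of the 8 genes (vertical axes, each from 0) in the 12 libraries, by group. Marker shapes are replicates A, B and C, horizontal bars are means and error bars are SD (n = 3). PDK1 stands apart in hypoxia siControl (94.1 to 104 CPM), while PDK4 is split by siRNA, with all 6 siARNT libraries at or below 100 CPM and all 6 siControl libraries at or above 184 CPM.

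PDK4, the kinase of fasting, was split by siRNA, with a smaller difference by oxygen in siControl. Its libraries held 203, 184 and 196 CPM in normoxia siControl and 93.8, 78.2 and 90.5 in normoxia siARNT. In hypoxia they held 247, 224 and 242 CPM in siControl and 100, 87.9 and 79.7 in siARNT. The 6 siARNT libraries lay far below the 6 siControl libraries, with no overlap. With siARNT PDK4 fell by 1.15 on the log2 scale at 21% O2 (0.451-fold, SE 0.092, adjusted p 1.03e-05). At 1% O2 it fell by 1.41 (0.375-fold, SE 0.092, adjusted p 7.75e-07), and it kept both calls under each alternative run. These 2 effects differed by -0.26 (SE 0.13, adjusted p 0.267), which is the interaction. With the GC correction that difference was -0.38 and passed the threshold (adjusted p 2.93e-05).

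Hypoxia raised PDK4 in siControl by 0.29 (SE 0.09, adjusted p 0.033), with no overlap between the 3 hypoxia and 3 normoxia libraries. Over 21 alternatives the value ran from 0.25 to 0.39, and the call was kept in 15. Leaving out 1 library ended this call in 6 of 12 cases. The adjusted p was 0.0559, 0.12 and 0.0822 without normoxia siControl replicate A, B and C, 0.117 and 0.0877 without hypoxia siControl replicate A and C, and 0.0517 without hypoxia siARNT replicate B. In siARNT the hypoxia value of PDK4 was 0.03 (SE 0.091, adjusted p 0.879), and the libraries of both oxygen levels overlapped.

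PDK2, a kinase found in most tissues, was low and uneven. Its libraries held 5.84, 7.74 and 6.22 CPM in normoxia siControl and 6.56, 12.4 and 5.87 in normoxia siARNT. In hypoxia they held 9.08, 11.7 and 9.14 CPM with siControl and 6.18, 7.68 and 10.8 with siARNT. The highest library of each siARNT group was 1 of the 2 with the steepest GC slopes, and PDK2 has the highest GC content of the 8 genes (58.5%). Its hypoxia value in siControl, 0.60 (SE 0.28, adjusted p 0.148), did not pass, though the groups did not overlap. It passed with the GC correction (0.47, adjusted p 0.00189), with only the 6 libraries compared fitted (0.59, adjusted p 0.0104) and without normoxia siARNT replicate B (0.59, adjusted p 0.0292). The siARNT value in hypoxia was -0.28 (adjusted p 0.497), and -0.37 with the GC correction (adjusted p 0.00978). In siARNT the hypoxia value was -0.01 (adjusted p 0.986) and changed sign between alternatives, from -0.26 to 0.40. With siARNT in normoxia it was 0.33 (adjusted p 0.409) and ran from -0.10 to 0.52.

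PDK3, the fourth kinase, had the fewest counts of the 8 genes, from 3.91 CPM in normoxia siARNT replicate B to 6.20 in hypoxia siARNT replicate A. The hypoxia value with siControl was 0.32 (SE 0.13, adjusted p 0.0999) and that with siARNT 0.33 (SE 0.13, adjusted p 0.174), and neither passed. In both siRNA groups every hypoxia library was above every normoxia library. Both passed with the GC correction (0.40, adjusted p 0.00206, and 0.31, adjusted p 0.0234), as did the siARNT value in normoxia, which went from 0.17 (adjusted p 0.344) to 0.30 (adjusted p 0.0197). Without hypoxia siControl replicate B the siControl value was 0.43 (adjusted p 0.044).

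**Figure D2:**
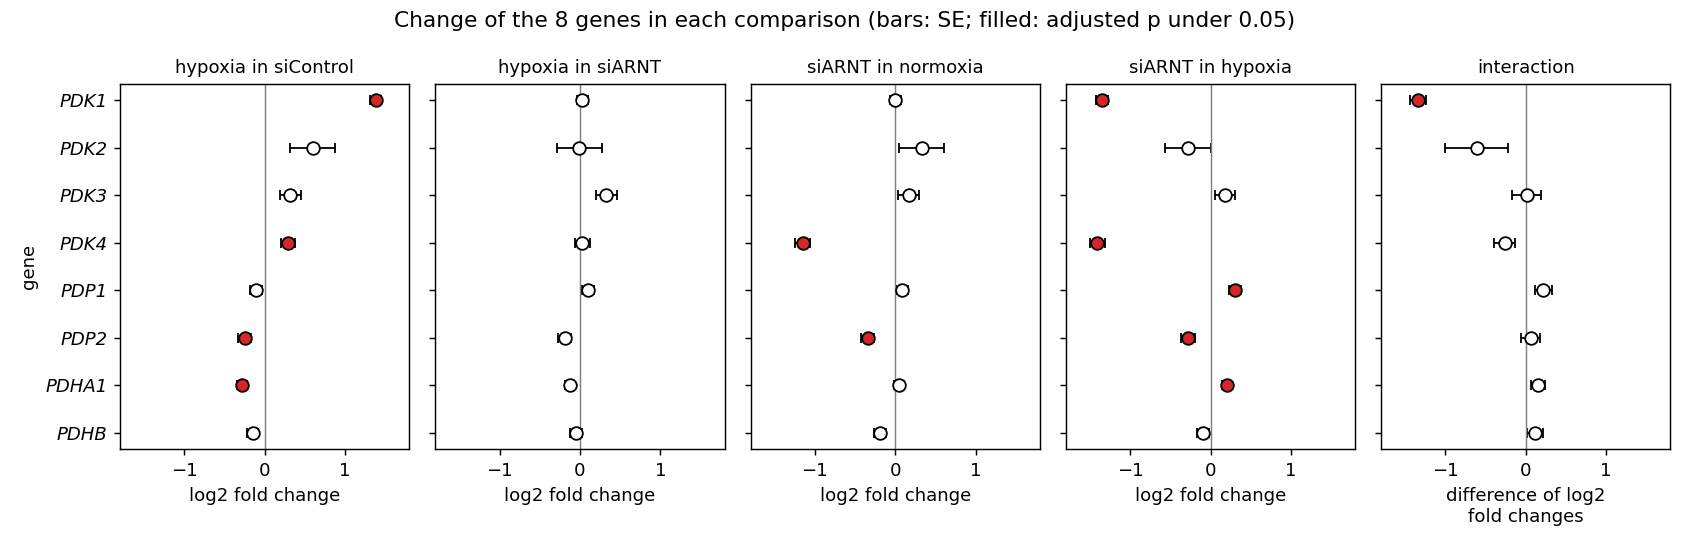
Log2 fold changes of the 8 genes (horizontal axes) in the 4 comparisons of 2 groups, and the interaction at the right. Bars are standard errors and filled points have an adjusted p under 0.05. PDK1 is filled in hypoxia in siControl (1.38), siARNT in hypoxia (-1.35) and the interaction (-1.34), and PDK4 in both siARNT comparisons.

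The make-up of the kinase transcripts moved with these changes. Per length, PDK4 held 75.3 ± 0.554% of the summed kinase TPM in normoxia siControl and PDK1 17.9 ± 0.516% (SD, n = 3). In hypoxia siControl PDK1 held 31.4 ± 0.482% and PDK4 62.2 ± 0.563%. With siARNT, PDK1 held 29.8 ± 0.699% in normoxia and 29.6 ± 0.685% in hypoxia, and PDK4 56.6 ± 2.91% and 55.8 ± 3.13%. A like share of PDK1 thus stood over different totals. The summed kinase level was 190 ± 6.34 TPM in hypoxia siControl, 130 ± 5.04 in normoxia siControl, 79.4 ± 4.54 in normoxia siARNT and 85 ± 2.18 in hypoxia siARNT. With the full exon length of each gene in place of the median transcript, PDK4 held 90.3 ± 0.456% and PDK1 5.44 ± 0.167% in normoxia siControl, and 84.6 ± 0.447% and 10.8 ± 0.211% in hypoxia siControl. The sizes of these shares therefore depend on the length used, and the place of PDK4 above PDK1 does not.

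**Figure D3:**
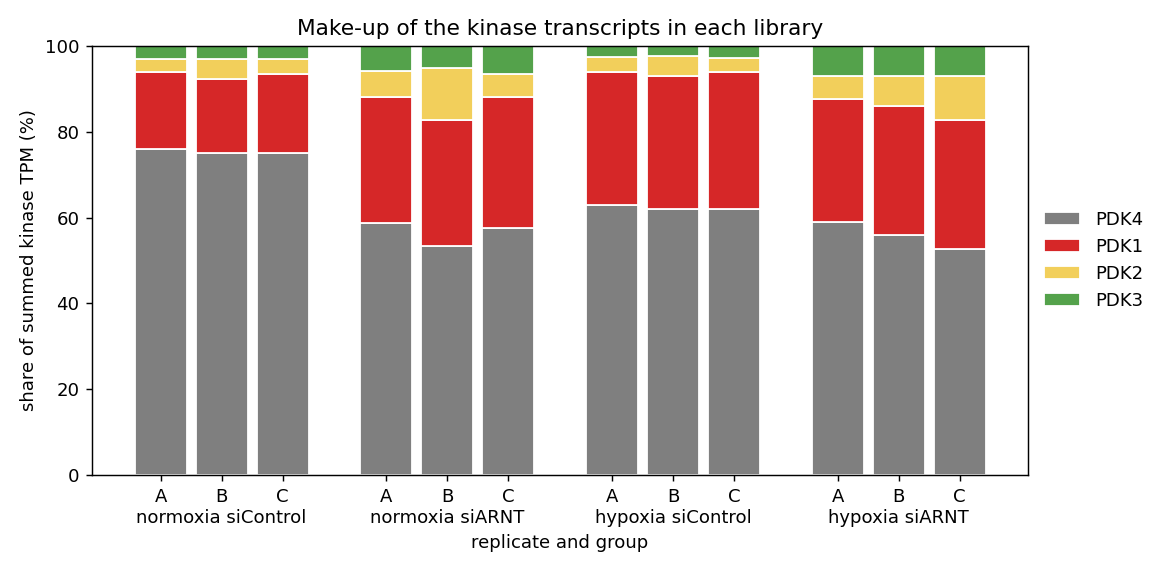
Share of each kinase in the summed TPM of the 4 kinases (vertical axis, percent), as stacked bars for each library. PDK4 is the largest part in every library, and PDK1 goes from 17.4 to 18.4% in normoxia siControl to 31.1 to 32.0% in hypoxia siControl.

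The phosphatases moved little. PDP1, the phosphatase stimulated by calcium, lies at chr8:93857807-93926066 on the plus strand (GRCh38, GENCODE 29). It held 42.5, 40.7 and 41.6 CPM in normoxia siControl and 45.3, 38.7 and 48.2 in normoxia siARNT. In hypoxia it held 40.0, 37.4 and 38.1 CPM with siControl and 47.4, 48.5 and 46.2 with siARNT. The hypoxia siARNT libraries were above all hypoxia siControl libraries, and siARNT raised it there by 0.30 (SE 0.075, adjusted p 0.0107). Without hypoxia siControl replicate B or C that call was lost (adjusted p 0.0606 and 0.0511). Hypoxia gave PDP1 no call, at -0.11 with siControl (adjusted p 0.318) and 0.10 with siARNT (adjusted p 0.458). The siARNT value in normoxia, 0.08 (adjusted p 0.431), became 0.20 with the GC correction (adjusted p 0.00795).

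PDP2, the second phosphatase, was highest in normoxia siControl, at 10.2, 9.76 and 9.80 CPM. It held 7.36, 8.25 and 7.91 CPM in normoxia siARNT, 8.03, 8.27 and 8.69 in hypoxia siControl and 7.01, 6.75 and 6.82 in hypoxia siARNT, which was below every other library. It fell with siARNT by 0.34 at 21% O2 (SE 0.082, adjusted p 0.0138) and by 0.28 at 1% O2 (SE 0.083, adjusted p 0.024), and with hypoxia in siControl by 0.25 (SE 0.082, adjusted p 0.039). The hypoxia call was lost with the replicate letter as a block (adjusted p 0.0561) and with siRNA and letter together as a block (0.114). It was lost with RLE size factors (0.05) and with no filter on low counts (0.334). It was also lost without normoxia siControl A, B or C (0.147, 0.0851 and 0.107) or normoxia siARNT C (0.0552). The same held without hypoxia siControl A or B (0.137 and 0.102) or hypoxia siARNT A or B (0.053 and 0.0613). The siARNT call in normoxia was lost with no filter (0.135) and without normoxia siControl A (0.0542), and that in hypoxia with total count scaling (0.0771), with no filter (0.194), with 6 libraries fitted (0.111), and without hypoxia siControl C (0.0669) or hypoxia siARNT B or C (0.0833 and 0.0585).

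The RNA of both sides of the switch was also compared, with the median transcript lengths only, so the sizes of these ratios may depend on length. The summed kinase TPM was 5.31 ± 0.123 times the summed phosphatase TPM in normoxia siControl and 8.57 ± 0.259 times in hypoxia siControl (SD, n = 3). It was 3.09 ± 0.199 times in normoxia siARNT and 3.01 ± 0.161 times in hypoxia siARNT. The siControl groups overlapped neither with each other nor with siARNT, and the siARNT groups overlapped. No exact permutation test of 3 against 3 libraries can go below 0.1, so none is given.

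Of the E1 subunits, PDHA1, which carries the serines the kinases act on, held 79.7, 81.8 and 82.0 CPM in normoxia siControl and 66.4, 67.9 and 66.6 in hypoxia siControl. It held 80.5, 90.9 and 80.9 in normoxia siARNT and 74.1, 75.7 and 81.4 in hypoxia siARNT. The hypoxia siControl libraries were the lowest 3 of the 12. PDHA1 fell with hypoxia in siControl by 0.28 (SE 0.061, adjusted p 0.00548), a call kept under each alternative run, and its value in siARNT was -0.13 (SE 0.061, adjusted p 0.26). These did not differ by test (interaction 0.15, adjusted p 0.334). With siARNT in hypoxia it was higher by 0.20 (SE 0.061, adjusted p 0.0256). That call was lost with no filter (0.143) and without hypoxia siControl A, B or C (0.0876, 0.064 and 0.076) or hypoxia siARNT B or C (0.0567 and 0.0852).

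PDHB, the other E1 subunit, passed in none of the 5 comparisons. Its libraries ran from 39.3 CPM in hypoxia siARNT replicate C to 53.4 in normoxia siControl replicate A. The lowest adjusted p was that of siARNT in normoxia (-0.19, SE 0.072, adjusted p 0.0732), where the groups did not overlap. It passed there with the replicate letter as a block (-0.19, adjusted p 0.044) and without hypoxia siARNT replicate A (0.0358) or C (0.0485), and for hypoxia in siControl with total count scaling (-0.18, adjusted p 0.0414).

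In counts, 4 of the 8 genes passed for hypoxia in siControl, 2 up and 2 down, where 25.3% of all tested genes passed, and all 8 had groups without overlap, as did 46.8% of all genes. Of all genes 10.4% rose and 14.9% fell there. For hypoxia in siARNT 0 of 8 passed in edgeR, against a background of 4.09% (2.21% higher and 1.89% lower), with 2 at an unadjusted p under 0.05 (PDK3 and PDP2) and 0 in DESeq2. Groups did not overlap for 2 of 8, against 22.2% of all genes. For the effect of siARNT in normoxia 2 of 8 passed, both lower, against 20.2% (9.42% higher and 10.8% lower), and 3 of 8 did not overlap, against 46.5%, which are close to the background. For that in hypoxia 5 of 8 passed, 2 higher and 3 lower, against 29.1% (14.4% higher and 14.7% lower), and 5 of 8 did not overlap, against 40.3%. For the interaction PDK1 alone passed of the 8, against 4.69% (2.49% higher and 2.19% lower). As a shared control enters both comparisons that use it, agreement between them is not counted as separate evidence. In bulk RNA, fewer cells expressing a gene and less of its RNA per cell cannot be told apart.

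PDK1 had 6 deposited events. The exon with the most skipping reads among the mostly included ones was exon 7 of 11 in the transcript PDK1-201, matched by length and spacing to chr2:172568741-172568817 of GRCh38, since the events' own coordinates are in an unnamed build. It is coding throughout and 77 nt long, which is not a multiple of 3, so a transcript without it changes reading frame. It is printed as the exon whose inclusion is followed below, in the sense direction and from the GENCODE 29 transcript.
PDK1 exon 7: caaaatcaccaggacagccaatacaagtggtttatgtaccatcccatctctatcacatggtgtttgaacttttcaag

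Reads across the junction that skips this exon numbered 10, 2 and 8 in normoxia siControl and 12, 3 and 6 in normoxia siARNT. In hypoxia they numbered 48, 24 and 24 with siControl and 16, 5 and 10 with siARNT. Inclusion reads are the mean over the 2 junctions of the exon. As a share of inclusion and skipping reads together, skipping took 6.54, 2.42 and 6.99%, then 7.50, 2.80 and 6.03%, then 14.93, 12.53 and 9.64%, and 15.76, 5.65 and 11.98%. All 3 hypoxia siControl libraries were above the 3 normoxia siControl libraries, and the siARNT groups overlapped. The counts are small: the 95% Wilson interval ran from 0.671 to 8.46% for the lowest library (normoxia siControl replicate B) and from 9.89 to 24.0% for the highest (hypoxia siARNT replicate A), covering counting error only. The log2 ratio of inclusion to skipping changed with hypoxia by -1.32 in siControl (SE 0.5) and -1.06 in siARNT (SE 0.5) in limma, and neither passed over all events (adjusted p 0.732 and 0.741). With precision weights, an alternative chosen after seeing the data, these were -1.11 (adjusted p 0.375) and -1.05 (adjusted p 0.342). The siARNT values were -0.04 at 21% O2 (adjusted p 1) and 0.22 at 1% O2 (adjusted p 0.943), and the interaction was 0.26 (adjusted p 0.973).

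**Figure D4:**
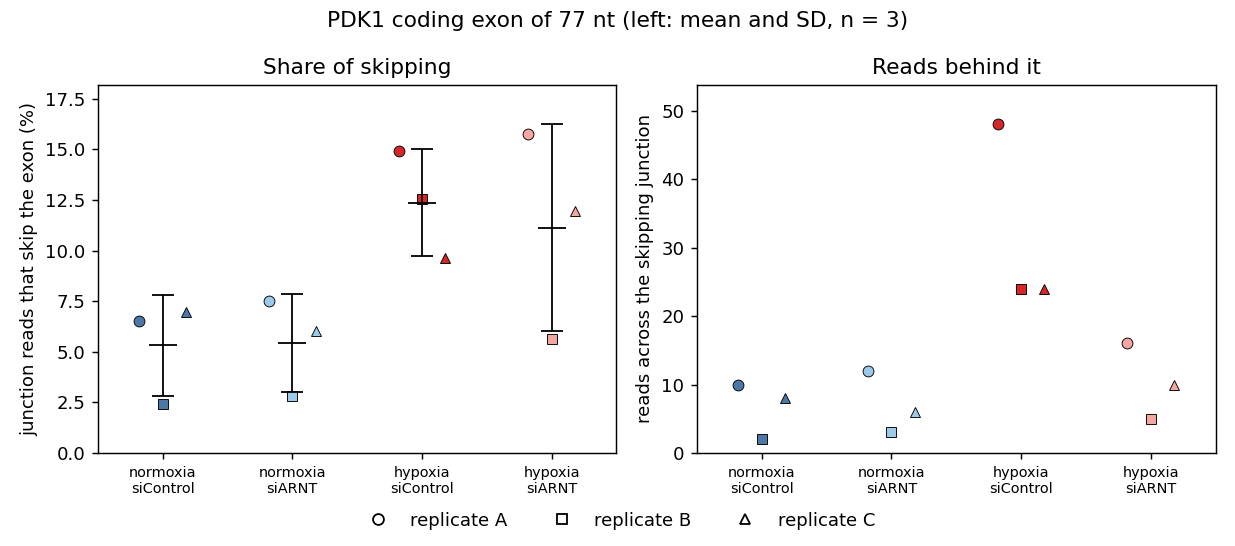
Left, percent of junction reads that skip the 77-nt coding exon of PDK1, by group, with mean and SD (n = 3). Right, the number of reads across the skipping junction in the same libraries. The normoxia libraries lie between 2.42 and 7.50% and the hypoxia libraries between 5.65 and 15.76%, on 2 to 48 reads.

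The 60-nt exon after the 72-nt exon was mostly left out, with 87.8 to 95.81% of junction reads skipping it. The 185-nt exon downstream was skipped in 0 to 3.51% of reads. The 0 was in hypoxia siARNT replicate B, where a count of 0 in 72 reads allows a share of up to 4.17%. Both exons together were skipped in 0 to 8.23%, from the same skipping reads. Of a pair of 3′ splice sites 15 nt apart, the lesser took 0 to 8.47% of reads, and was at 0 in normoxia siARNT replicate C (71 reads, which allows up to 4.23%) and hypoxia siARNT replicate B (66 reads, up to 4.55%). In the last event, a stretch of 1589 nt near the end of the gene was listed as a retained intron, and its coverage (0.994 ± 0.0792 per M in normoxia siControl, SD, n = 3) was close to that of the exon before it (1.05 ± 0.218). Its removal took 4.88, 10.80 and 12.58% of reads in normoxia siControl and 20.47, 16.18 and 15.75% in normoxia siARNT, with no overlap. That change, -1.05 in the log2 ratio of retention to removal (SE 0.39, adjusted p 0.552), did not pass.

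In limma 0 of the 6 PDK1 events passed in any of the 5 comparisons, and 0 under any alternative run. At an unadjusted p under 0.05 there was 1 for hypoxia in siControl (exon 7), 1 for siARNT in normoxia (the 1589-nt stretch) and 0 in the other 3. Calls were rare throughout, at 0.0567% of the 45856 events for hypoxia with siControl and 0.0262% for hypoxia with siARNT. For the effect of siARNT the share was 0.133% at 21% O2 and 0.229% at 1% O2, and for the interaction 0.0371%. That none of the 6 passed does not show that their shares were unchanged. The share of all events with groups that do not overlap was not counted, so the separations given above are descriptions only. Of the events of the other 7 genes, 7 could be tested and 0 passed. The lowest adjusted p was 0.447, for a PDK4 splice site that had 0 to 3 reads in any library beside 127 to 706 for the usual site. PDP1 had 2 events with too few reads to test, and PDK2 and PDK3 had none.

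By profile over the 12 libraries, the 5 genes most like PDK1 among 9854 ranked were DYNC2I1, PTPRR, ARRDC3, C4orf3 and PTPRB. Likeness is the root mean square difference of the centred log2(CPM + 0.5) profiles, and it was 0.0906, 0.0919, 0.105, 0.116 and 0.117 log2 units. DYNC2I1, a subunit of the ciliary dynein-2 motor, averaged 29.9 and 30.4 CPM in normoxia siControl and siARNT, 71.5 and 31.8 CPM in the hypoxia groups, siControl first. PTPRR, a receptor-type tyrosine phosphatase, averaged 37.9, 33.9, 101 and 38.3 CPM in the same order. ARRDC3, an alpha-arrestin, averaged 144, 131, 358 and 126 CPM.

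The other genes around the complex were read from a list of 50, of which 47 were tested. For hypoxia in siControl 19 of 47 passed, 4 up and 15 down, with a median of -0.13 against 0.022 for all genes, where 10.4% of all genes rose and 14.9% fell. With the GC correction 28 passed, 12 up and 16 down, where 43.9% of all genes passed. Of the 4 further tested genes listed with the complex, 3 fell. They were led by DLAT, the acetyl-transferring E2 core (-0.39, adjusted p 0.00394), and DLD, the E3 subunit (-0.37, adjusted p 0.00743). Of the 15 citric acid cycle genes 7 fell and 0 rose, led by IDH3A (-0.69, adjusted p 3.59e-05) and fumarase FH (-0.66, adjusted p 0.000224). Of the 7 genes for lipoylation and cofactors 3 fell and 0 rose. Of the sister complexes, which break down branched-chain amino acids and 2-oxoglutarate, 0 of 7 passed.

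Among the genes for other uses of pyruvate, LDHA and pyruvate carboxylase PC rose in that comparison and the rest that passed fell. LDHA, which turns pyruvate into lactate, went from 2640 ± 85 to 6930 ± 175 CPM (SD, n = 3), a change of 1.39 (adjusted p 2.86e-07) beside the 1.38 of PDK1. Its libraries in both groups were far apart. PC, which turns pyruvate into oxaloacetate, changed by 1.37 (adjusted p 0.0319), on 2.36, 2.71 and 2.34 CPM in normoxia and 5.36, 9.37 and 4.44 in hypoxia, and lost its call in 6 of 21 alternatives. LDHB, the other lactate dehydrogenase subunit, was at or near 0 counts and was not tested, as were PDHA2 and PPARGC1A.

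Of the 8 regulators of PDK transcription that were tested, 2 rose with hypoxia in siControl and 0 fell, a share like the 25.3% of all genes that passed. They were the fatty acid sensing receptor PPARA (0.37, adjusted p 0.00056) and the forkhead factor FOXO3 (0.24, adjusted p 0.00697).

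In siARNT, 3 of the 47 passed for hypoxia, against 4.09% of all genes: LDHA was higher (0.37, adjusted p 0.0192), and IDH3A (-0.29, adjusted p 0.0413) and PPARG (-0.28, adjusted p 0.0356) were lower. These are near the background share, and each lost its call under several alternatives. With the GC correction 18 of 47 passed, where 22.9% of all genes did. The interaction passed for 7 of 47, against 4.69%, with LDHA at -1.02 (adjusted p 0.000192). The malic enzyme ME2, at 0.66 (adjusted p 0.0314), FH, at 0.55 (adjusted p 0.0283), and SUCLG1, a succinyl-CoA ligase subunit, at 0.47 (adjusted p 0.0146), had positive values, and PPARG was at -0.39 (adjusted p 0.0337).

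With siARNT 13 of 47 passed in normoxia, 5 up and 8 down, against 20.2% of all genes. In hypoxia 15 passed, 10 up and 5 down, against 29.1%, a share near the background. With the GC correction these were 12 up and 10 down, and 15 up and 10 down, where 33.5% and 47.4% of all genes passed. The steepest of these was PPARA, known as a regulator of PDK4. PPARA held 137, 133 and 138 CPM in normoxia siControl and 46.9, 49.5 and 48.7 in normoxia siARNT, and in hypoxia 186, 178 and 164 CPM in siControl and 52.2, 51.3 and 49.7 in siARNT. As with PDK4, the 6 siARNT libraries were below the 6 siControl libraries. It fell by 1.49 in normoxia (SE 0.058, adjusted p 2.19e-08) and by 1.79 in hypoxia (SE 0.058, adjusted p 2.74e-09), and kept both calls under each alternative run. Whether the PPARA and PDK4 values are linked was not tested. In normoxia EPAS1, the HIF-2 alpha gene, was higher by 0.43 (adjusted p 0.00122), and in hypoxia PPARG was lower by 0.51 (adjusted p 0.000111). FOXO3 was lower with siARNT in both, at -0.25 in normoxia (adjusted p 0.0102) and -0.51 in hypoxia (adjusted p 3.84e-05). It lost the normoxia call in 2 of 20 alternatives. Of the 8 tested regulators of PDK transcription, 1 passed higher and 2 lower in normoxia, and 1 higher and 3 lower in hypoxia.

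Other genes that passed with siARNT went both ways. DBT, the E2 core of the branched-chain complex, was higher in normoxia (0.51, adjusted p 0.0009) and in hypoxia (0.71, adjusted p 3.33e-05), and DLST, the E2 core of the 2-oxoglutarate complex, was lower in both (-0.38, adjusted p 0.00558, and -0.42, adjusted p 0.0017). In hypoxia LDHA was lower by 1.39 (adjusted p 1.27e-07) and the pyruvate carrier subunit MPC1 was higher by 0.57 (adjusted p 0.00126). There 6 of 15 citric acid cycle genes were higher and 0 lower, against 14.4% and 14.7% of all genes. They were led by SUCLG1 (0.47, adjusted p 0.000196) and IDH3A (0.41, adjusted p 0.000942). These 2 kept that call in all 20 alternatives, and each of the other citric acid cycle genes called there lost it in 5 to 15. In normoxia DLAT (-0.28, adjusted p 0.0305), LDHA (-0.37, adjusted p 0.00443) and LIAS (-0.33, adjusted p 0.0149) were lower. GPT2 (0.40, adjusted p 0.0182) and IDH2 (0.62, adjusted p 0.0356) were higher there. DLAT, LIAS, GPT2 and IDH2 each lost that call in 3 to 7 of 20 alternatives.

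**Figure D5:**
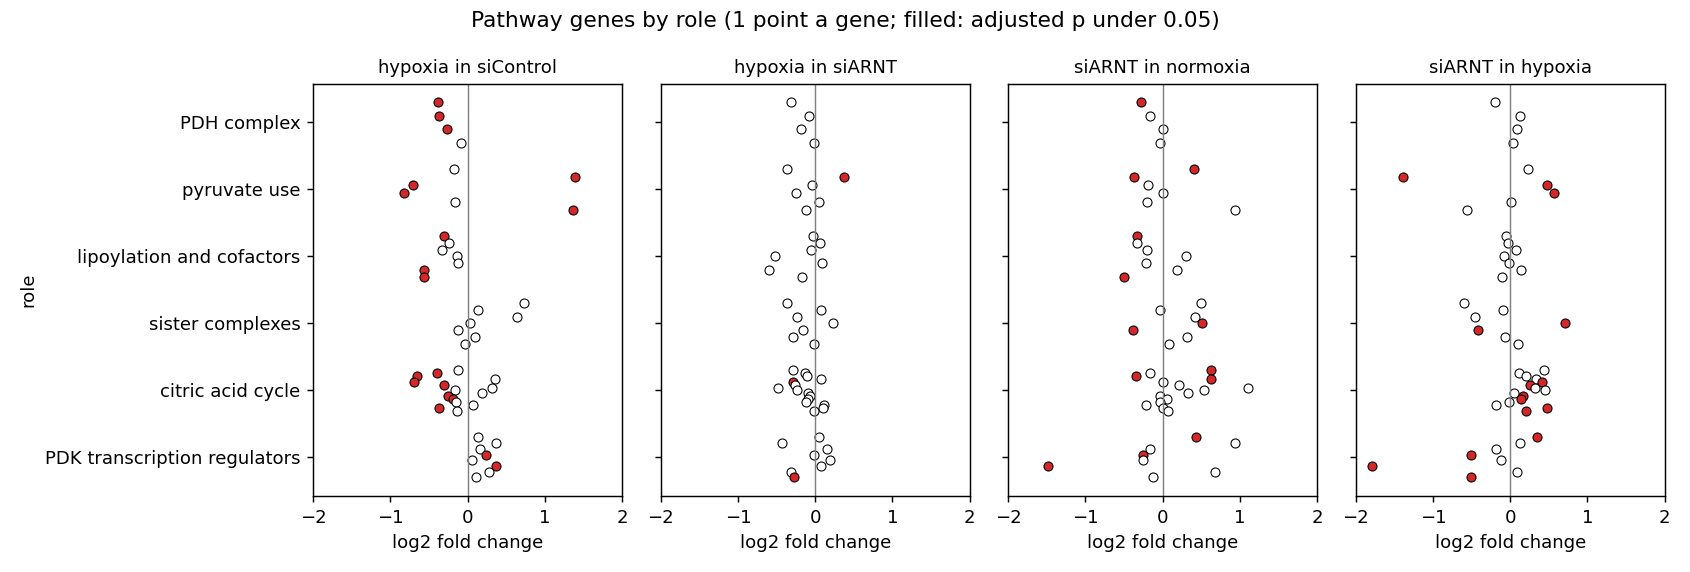
Log2 fold changes (horizontal axes) of the 47 tested genes around the pyruvate dehydrogenase complex, 1 point a gene, by role (rows) in 4 comparisons. Filled points have an adjusted p under 0.05. The 2 points right of 1 for hypoxia in siControl are LDHA (1.39) and PC (1.37), and the lowest point in each siARNT comparison is PPARA (-1.49 and -1.79).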

How the data were processed

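Poly(A) RNA of 12 AsPC-1 libraries was read single-end, with strand, per the labels' protocols. The submitters' processing notes name Trimmomatic, STAR 2.4.2a and GRCh38.p10, with no role or order. The authors deposited whole-number counts per gene, with 22.71 to 25.2% of reads on 5 lines that name no gene, which were left out. 51996 of the 57820 IDs matched a symbol. The deposited event tables give junction counts, the inclusion share as a fraction and the mean read coverage of exons and introns. Their caller and build are not given in the sources used here. The fraction was recomputed from the counts within 0.0051 for 99.18 to 100% of values. Replicates of a group differed beyond counting noise (chi-square over its degrees of freedom, 4.3 to 89.11).

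Counts were tested with edgeR 4.0.16 in R 4.3.3 (TMM, filterByExpr, robust quasi-likelihood, 12 libraries, 1 mean per group), with Benjamini-Hochberg adjustment over 16999 genes and calls at an adjusted p under 0.05. Events with at least 10 reads in every library were tested with limma 3.58.1 on log2((inclusion + 0.5)/(exclusion + 0.5)). Both were tested on simulated data without the GC slopes and shared replicate deviations seen here, so that check does not cover these. DESeq2 1.42.0, other scalings, filters, blocks, a GC correction (GC for 97.3% of tested genes) and leaving out each library were alternatives. Same-letter libraries deviated together in normoxia and hypoxia siControl (r of 0.51, 0.74 and 0.50) and in normoxia siControl and siARNT (0.70, 0.88 and 0.39). The block is therefore given beside the results it changes there. Some libraries of unlike letters also went together, such as normoxia siControl A and normoxia siARNT C (0.76). Between normoxia and hypoxia siARNT only A deviated together (0.91, against -0.13 for B and -0.85 for C). The same held between siControl and siARNT in hypoxia (0.68, -0.1 and -0.72). Hypoxia siARNT C went with replicate B of normoxia siControl, normoxia siARNT and hypoxia siControl (0.87, 0.93 and 0.84). A block by letter thus sets it beside replicate C of those groups, which deviated the other way (-0.55, -0.85 and -0.72). The labels do not say what the letters share.

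The 8 genes and the lists were chosen with earlier results of these data known. The text names the 8 genes, ARNT, the PDK1 events, the 5 genes most like PDK1 (among those averaging 5 CPM or more), and per role and comparison at most the 2 called list genes with the largest change. LDHB, PDHA2 and PPARGC1A were named after their values were seen, as was FOXO3 with siARNT. Some genes that this rule would name are not reported here.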

Additional observations from a re-analysis of the deposited data

Results flagged for a closer look

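The change with hypoxia differed between siARNT and siControl, by the interaction test in edgeR, for PDK1 and for 7 of the 47 tested genes around the complex. The 5 of these given here are at most the 2 with the largest difference per role. PDK1 had the largest difference, at -1.34 (adjusted p 2.44e-05): all 3 hypoxia siControl libraries were above all normoxia siControl libraries, while the siARNT libraries overlapped. LDHA differed by -1.02 (adjusted p 0.000192), and kept this call under each alternative run. ME2 differed by 0.66 (adjusted p 0.0314), FH by 0.55 (adjusted p 0.0283), SUCLG1 by 0.47 (adjusted p 0.0146) and PPARG by -0.39 (adjusted p 0.0337). Of 20 alternatives, ME2 lost its call in 10, FH in 8, SUCLG1 in 2 and PPARG in 11. Groups of 3 libraries were not searched for single outlying libraries.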

How the results depend on the processing

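Of the 8 genes, PDK1 (hypoxia in siControl 1.32 to 1.47, siARNT in hypoxia -1.41 to -1.26, interaction -1.47 to -1.29), PDK4 with siARNT (-1.20 to -0.99 in normoxia, -1.5 to -1.33 in hypoxia) and PDHA1 for hypoxia in siControl (-0.30 to -0.21) kept direction and call under the alternatives run. A log2 fold change of at least 1 left 1 of 4, 1 of 2 and 2 of 5 calls for hypoxia in siControl, siARNT in normoxia and siARNT in hypoxia. With no filter on low counts 1 and 3 were left in these siARNT comparisons, and the interaction of the pathway list fell from 7 to 4. The GC correction gave 1, 5 and 2 called of 8 for hypoxia in siARNT, siARNT in normoxia and the interaction, the same with the replicate block beside it, and 0.15 for PDK1 with siARNT in normoxia (adjusted p 0.0127, and 0.0126 with the block). For the pathway list it gave 18 calls for hypoxia in siARNT, 22 for siARNT at 21% O2, 25 at 1% O2 and 15 for the interaction, and with the replicate block 19, 25, 27 and 14, and 30 for hypoxia in siControl. Of all genes it called 22.9, 33.5, 47.4 and 19.7% in the first 4, and 45.1% for hypoxia in siControl with the block. Part of each gain is thus shared by all genes. The cause was not tested. The 3 pathway calls for hypoxia in siARNT became 6 with DESeq2, 1 with RLE size factors, 5 with total count scaling and 0 with 6 libraries fitted. They became 1 with siRNA and letter together as a replicate block, which also left 3 for the interaction. The letter as a replicate block changed no other call of the 8 genes than those given for PDP2 and PDHB. For siARNT in hypoxia the median over all genes was 0.104 with total count scaling, and directions there are relative to it.

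PDK2 for hypoxia in siARNT was 0.03 with total count scaling and with either replicate block, 0.01 with 6 libraries fitted and 0.20 with the GC correction, with or without the block. PDK2 with siARNT in normoxia was -0.10 with the GC correction, with or without the block. The interaction of PDK3 was -0.01 with no filter and -0.09 with the GC correction, and that of ARNT -0.01, alike with the block.

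With 1 library left out, called counts of the 8 genes ran from 2 to 5 for hypoxia in siControl (2 without any 1 normoxia siControl library, hypoxia siControl A or hypoxia siARNT B), from 1 to 3 for siARNT in normoxia (1 without normoxia siControl A) and from 2 to 5 for siARNT in hypoxia (2 without hypoxia siControl C, and 3 without hypoxia siControl B or hypoxia siARNT B or C). The pathway counts ran from 0 to 3 for hypoxia in siARNT, at 0 or 1 without any 1 library other than normoxia siARNT B and hypoxia siControl B and C. They ran from 7 to 16 for siARNT in normoxia (7 without normoxia siControl A or C, and 8 without normoxia siARNT B) and from 1 to 8 for the interaction (4 or fewer without any 1 library other than hypoxia siControl C and hypoxia siARNT C). Signs changed in the ranges -0.26 to 0.40 (PDK2), -0.04 to 0.10 (PDK4) and -0.10 to 0.01 (PDHB) for hypoxia in siARNT, -0.09 to 0.52 (PDK2) and -0.02 to 0.08 (PDHA1) for siARNT in normoxia, and -0.09 to 0.09 (PDK3, interaction). For PDK1 exon 7 they did so in -0.44 to 0.39, -0.23 to 0.55 and -0.19 to 0.65 for siARNT at 21% O2, at 1% O2 and for the interaction. PDK2, PDK3 and PDP2 rest on the fewest counts of the 8 genes, and exon 7 on 2 to 48 skipping reads, which limits both.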

Other observations

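LDHA averaged 2640 ± 85 CPM in normoxia siControl (SD, n = 3), and LDHB, whose subunits form lactate dehydrogenase with those of LDHA in many tissues, was listed at 0 counts in 11 of the 12 libraries and 1 count in the other. Whether the cells lack LDHB RNA or the counting dropped its reads was not tested. The coactivator PPARGC1A, known to raise PDK4 with PPAR and ERR factors, was likewise at or near 0, while PPARA averaged 136 ± 2.79 CPM and PPARG 92.2 ± 0.743 CPM in normoxia siControl.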
